A study of Mus musculus with 4 samples.

Results

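The genes described here are 9 markers of B cell identity: Cd79a, Cd79b, Ms4a1, Pax5, Ebf1, Cd22, Ighm, Ighd and Igkc. They are a fixed set of symbols, matched to the tables by Ensembl mouse identifier with its version removed, and 8 of the 9 had a row among the 38924 identifiers of the deposited tables. Ighd was not matched under its identifier in GENCODE M21 and was not analysed here. They were read in regulatory T cells (Treg), the CD4-positive, Foxp3-positive T cells that restrain immune responses, sorted from mouse spleen. Activated Treg (aTreg) were compared with resting Treg (rTreg), with 2 libraries of each, which the study's design text says came from independent animals. The labels print one and the same gate, CD4+Foxp3+CD62LhiCD44lo, for both populations and name no genotype, treatment or age. The series title concerns graded Foxo1 activity in Treg. Columns of the count table repeat their heading within a group, so the libraries are called activated A, activated B, resting A and resting B, and the letters pair nothing.

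B cells recognise antigen through a membrane immunoglobulin whose heavy chain (Ighm, Ighd) and light chain (Igkc or a lambda gene) are held in a complex with the signalling chains Cd79a and Cd79b. The transcription factors Ebf1 and Pax5 set up and hold the B cell programme, and Ms4a1 (CD20) and Cd22 are surface proteins of mature B cells. The spleen is rich in B cells. A complete immunoglobulin message joins a constant gene to a variable (V) segment by recombination, and constant genes can also be transcribed without a V segment.

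The libraries held 29332058 and 20282062 counts in activated Treg and 20699024 and 31851982 in resting Treg, so that 1 CPM (reads scaled to library size with TMM factors) stood for 20.3 to 30.7 reads. T cell genes were high throughout: Cd3e, a chain of the T cell receptor complex, was at 1456 and 2138 CPM in activated Treg and 1437 and 1706 CPM in resting Treg. Foxp3 was between 35.0 and 38.7 CPM in the 4 libraries. Cd44, a marker of the sort, was at 329 and 335 CPM in activated Treg and at 145 and 213 CPM in resting Treg. Macrophage and monocyte genes separated libraries within each group: the 10 listed summed to 586 CPM in activated A and 71.9 CPM in activated B, and to 530.3 CPM in resting A and 16.1 CPM in resting B.

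The B cell identity genes did not all lie on one side between the groups. Cd22, Ighm, Igkc and Cd79b were higher in both activated libraries than in both resting ones, Cd79a and Ms4a1 were lower in both, and Ebf1 and Pax5 overlapped. The 4 that were higher differed in mean CPM by 1.84-fold to 7.36-fold. Such separation without overlap held upward for 19.8% and downward for 17.4% of all genes tested. Neither Cd79a nor Ms4a1 passed the threshold in any run. By edgeR's quasi-likelihood test over 14235 genes, 0 members passed at an adjusted p of 0.05, as did 0% of all genes. With p below 0.05 before adjustment, edgeR had 3 members higher (Cd22, Ighm and Cd79b) and 0 lower, beside 6.3% of all genes higher and 2.61% lower. DESeq2 called 1 member, Cd22, higher and 0 lower, where it called 2.02% of its genes higher and 0.689% lower. Over the 7 members tested the median log2 fold change was 0.87, with 4 above 0 and 3 below, and over all genes tested the median was -0.01. Pax5 lay under the low-count filter in every library and was not tested. In bulk samples, fewer cells of a type and less RNA per cell cannot be told apart, and a read is assigned to no cell.

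**Figure D1:**
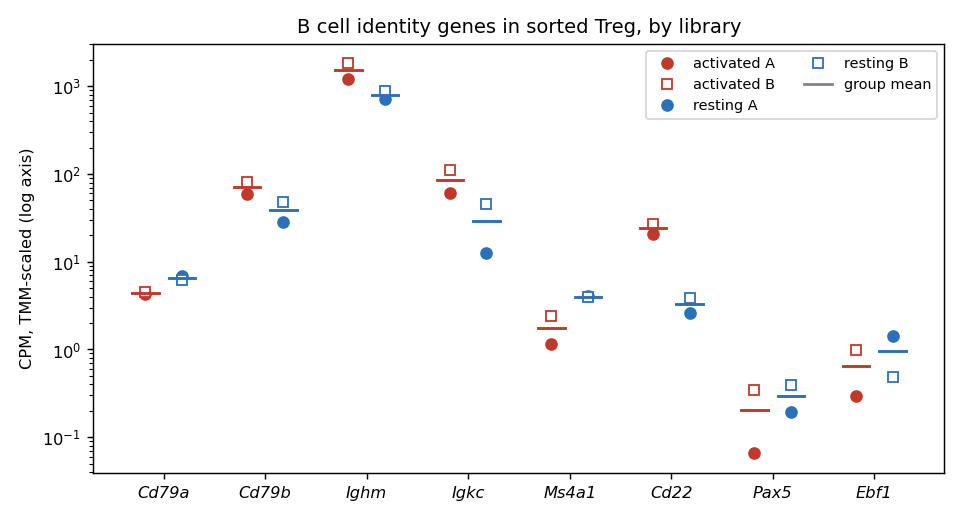
CPM scaled with TMM factors (log axis) of the 8 genes in each of the 4 libraries, with activated Treg in red, resting Treg in blue and a bar at each group mean. Cd22 stands apart most, at 20.98 and 27.1 CPM in activated Treg against 2.62 and 3.91 CPM in resting Treg, while Ebf1 and Pax5 overlap.

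Cd79a, a signalling chain of the B cell receptor (mm10 chr7:24897381-24902197, plus strand, GENCODE M21), was at 4.28 and 4.49 CPM in activated Treg and at 6.94 and 6.26 CPM in resting Treg. The activated values were the lower pair, by a small step: the log2 fold change was -0.58 ± 0.32 (SE), and it did not pass (edgeR adjusted p = 0.768). Its 4 counts, 131 and 91 against 143 and 192, had exact Poisson 95% intervals from 73.3 to 112 at the lowest and from 166 to 221 at the highest. These and the other intervals given here cover counting error only, since the libraries were amplified by PCR and carried no molecular identifiers.

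The promoter of Cd79a is shown because this gene and Cd22 lay on opposite sides between the groups. RefSeq gives it at chr7:24897247-24897546 on the plus strand (GRCm38.p6), around the start of the gene, and the promoter of Cd22 at chr7:30878979-30879278 on the minus strand. The Cd22 window lies inside the gene as GENCODE M21 gives it (chr7:30865402-30880342), not around its start there, so the windows are not placed alike. Capitals mark matches, on either strand, to 5 motifs: an E-box CAGGTG, an EBF motif CCCNNGGG, an ETS motif GGAAGT, an octamer ATGCAAAT and a Foxo motif GTAAACA.
Cd79a: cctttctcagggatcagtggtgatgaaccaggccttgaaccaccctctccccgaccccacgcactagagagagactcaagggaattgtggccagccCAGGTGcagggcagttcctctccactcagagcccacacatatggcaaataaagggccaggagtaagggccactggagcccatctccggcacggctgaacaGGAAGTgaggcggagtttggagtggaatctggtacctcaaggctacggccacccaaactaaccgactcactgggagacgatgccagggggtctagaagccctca
Cd22: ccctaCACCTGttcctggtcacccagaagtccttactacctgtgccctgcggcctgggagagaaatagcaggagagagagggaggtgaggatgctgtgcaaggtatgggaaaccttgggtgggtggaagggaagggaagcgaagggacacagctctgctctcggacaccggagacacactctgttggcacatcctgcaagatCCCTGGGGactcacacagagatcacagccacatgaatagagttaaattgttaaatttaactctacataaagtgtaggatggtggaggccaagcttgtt
The Cd79a window held 1 E-box and 1 ETS match, and the Cd22 window 1 E-box and 1 EBF match; none of these matches overlapped another, and the octamer and Foxo letters were in neither window. The E-box letters stood in 20.2%, the EBF letters in 13.7%, the ETS letters in 23.8%, the octamer in 1.74% and the Foxo letters in 3.65% of 32851 promoter windows of the same length. Among the members, 4 of 9 had an entry in the promoter table.

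Cd79b, the partner of Cd79a in the receptor, was far more abundant and lay the other way. It was at 59.96 and 81.1 CPM in activated Treg and at 28.3 and 48.5 CPM in resting Treg, with no overlap between the groups. The log2 fold change was 0.87 ± 0.33 (SE), with an unadjusted edgeR p of 0.0428 and an adjusted p of 0.529. It was 0.53 without resting A and 1.30 without resting B. In the authors' regularized log2 values Cd79b was at 10.51 and 10.92 in activated replicates 1 and 2 and at 9.53 and 10.25 in resting replicates 1 and 2. The ratio of Cd79b to Cd79a within a library was 14.0 and 18.1 in activated Treg and 4.08 and 7.75 in resting Treg, so the partner chains did not keep a common proportion. Cd79b lies at chr11:106311341-106314762 (minus strand).

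Ighm, the constant gene of the IgM heavy chain, was the most abundant of the 8 genes in every library. It held 37233 and 36940 reads in activated Treg and 14722 and 27260 in resting Treg, or 1217 and 1821 CPM against 715 and 889 CPM. The groups did not overlap, and the log2 fold change was 0.92 ± 0.26 (SE), with an unadjusted edgeR p of 0.0154 and an adjusted p of 0.389 (DESeq2 adjusted p = 0.0685). It was 1.19 without activated A and 0.60 without activated B. Of all reads on the 8 genes, Ighm took 89.2% (95% Wilson interval 88.9 to 89.5) and 88.9% (88.6 to 89.2) in activated Treg and 92.7% (92.3 to 93.1) and 89.1% (88.7 to 89.4) in resting Treg. The 8 genes together summed to 1706 ± 484 CPM in activated Treg and 884 ± 160.2 CPM in resting Treg (SD, n = 2 each). Ighm lies at chr12:113418558-113422730 (minus strand).

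Igkc, the constant gene of the kappa light chain, varied most between the resting libraries among the 7 members tested. It was at 60.7 and 111 CPM in activated Treg and at 12.7 and 45.2 CPM in resting Treg, with a log2 fold change of 1.56 ± 0.65 (SE) and an edgeR adjusted p of 0.598. The value moved with the resting libraries: the log2 fold change was 0.92 without resting A and 2.74 without resting B, where edgeR called it (adjusted p = 0.0194). It was 1.06 without activated B. Without scaling for exon length, reads on Ighm outnumbered those on Igkc by 20.04 and 16.4 to 1 in activated Treg and by 56.4 and 19.7 to 1 in resting Treg. Igkc lies at chr6:70726435-70726966 (plus strand), where the predicted gene Gm30211 overlaps it on the same strand.

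Variable segments gave a readout of the immunoglobulin loci that the choice of genes had not used. The heavy chain V segments (Ighv, 108 in the table) took 283 and 214 reads in activated Treg and 99 and 342 in resting Treg, summed over all segments. Per 100 Ighm reads, this was 0.760 and 0.579 Ighv reads in activated Treg and 0.672 and 1.25 in resting Treg. The kappa V segments (Igkv, 103 in the table) stood in another proportion to their constant gene, at 41.0 and 49.4 per 100 Igkc reads in activated Treg and at 33.0 and 59.4 in resting Treg. For scale, the alpha chain V segments of the T cell receptor took 29.2 and 26.7 reads per 100 reads of their constant gene Trac in activated Treg and 31.1 and 27.7 in resting Treg. The heavy chain ratio was thus far below the other ratios in all 4 libraries, and its groups overlapped. These ratios are not scaled for exon length, which was 1886 bases for Ighm, 532 for Igkc and 935 for Trac. A longer constant gene collects more reads and so lowers its ratio. The handling of reads shared between V segments or spanning a recombined junction was not given in the sources used here.

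**Figure D2:**
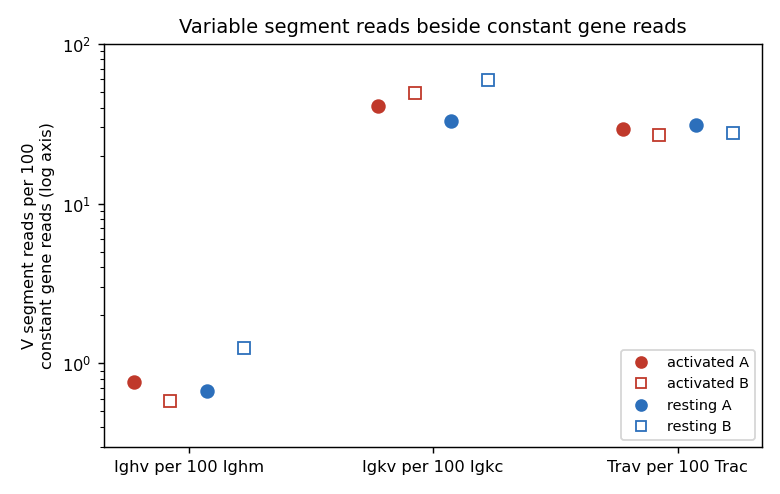
Reads on variable segments per 100 reads on the matching constant gene (log axis) in the 4 libraries, with activated Treg in red and left of resting Treg in blue. The Ighv ratio to Ighm lies between 0.579 and 1.25, and the Igkv and Trav ratios lie between 26.7 and 59.4.

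The heavy chain V segment with the most reads was a different one in each library, as was the kappa V segment. Ighv1-39 held 39.2% (95% Wilson interval 33.7 to 45.0) of the Ighv reads in activated A, and Ighv14-2 held 14.0% (9.999 to 19.3) in activated B. Ighv1-50 held 60.6% (50.8 to 69.7) in resting A, and Ighv6-3 held 53.2% (47.9 to 58.4) in resting B. Among kappa segments, Igkv1-135 held 53.2% (49.7 to 56.7) in activated A and Igkv4-57 held 17.7% (15.5 to 20.02) in activated B. Igkv8-30 held 22.1% (14.6 to 31.9) in resting A and Igkv5-39 held 29.8% (26.7 to 33.0) in resting B. Several leads were narrow, with overlapping intervals of the first and second segments. In activated A, Ighv1-85 followed with 98 reads to 111. In activated B, Ighv1-76 followed with 25 reads to 30 and Igkv4-57-1 with 181 to 197. In resting B, Igkv4-62 followed with 241 reads to 245. Of the 3 lambda V segments in the table, Iglv3 held 310 of 509 reads in activated A and 18 of 32 in activated B. In activated B its lead over Iglv1, with 14 reads, was not resolved (95% Wilson intervals 39.3 to 71.8% and 28.2 to 60.7%). Iglv1 held 5 of 9 in resting A. In resting B Iglv2 held 252 of 503 and Iglv1 249. The leading T cell receptor segment, Trbv3 or Trbv13-2, held 8.30% to 11.2% of the Trav and Trbv reads in each library.

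Reads on the joining (J) and diversity (D) segments of the heavy chain locus gathered at Ighj1 and at the D segment nearest to it. The J segments took 366 and 306 reads in activated Treg and 15 and 105 in resting Treg, or 11.96 and 15.1 CPM against 0.728 and 3.42 CPM, with no overlap. Ighj1 held 70.5% (95% Wilson interval 65.6 to 74.9) and 75.5% (70.4 to 80.0) of them in activated Treg and 80.0% (54.8 to 93.0) and 61.9% (52.4 to 70.6) in resting Treg. Of the 20 D segments in the table, Ighd4-1, which lies 694 bases from Ighj1, held 14 of 16 and 21 of 22 D reads in activated Treg and 1 of 2 and 4 of 4 in resting Treg. Both sequences are shown because they held most of the D and J reads; they are from GENCODE M21 transcripts on the minus strand, in lower case with no part marked.
Ighd4-1: ctaactgggac
Ighj1: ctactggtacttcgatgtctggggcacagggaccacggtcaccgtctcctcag
Ighd4-1 lies at chr12:113430528-113430538 and Ighj1 at chr12:113429781-113429833. D segments are short, and the overlap a read needed to count was not given in the sources used here.

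Ms4a1, the surface protein CD20 of mature B cells, was at 1.14 and 2.42 CPM in activated Treg, from 35 and 49 reads, and at 4.03 and 3.98 CPM in resting Treg, from 83 and 122 reads. The groups did not overlap, but the log2 fold change of -1.14 ± 0.50 (SE) did not pass (edgeR adjusted p = 0.642). It was -0.70 without activated A and -1.75 without activated B. Ms4a1 lies at chr19:11249675-11266241 (minus strand), and 4930526L06Rik overlaps it on the other strand.

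Cd22, an inhibitory sialic acid receptor that damps B cell receptor signals, differed most between the groups. It had 642 and 550 reads in activated Treg and 54 and 120 in resting Treg, or 20.98 and 27.1 CPM against 2.62 and 3.91 CPM. Both activated values were above both resting values. The mean in activated Treg was 24.0 ± 4.34 CPM, against 3.27 ± 0.913 CPM in resting Treg (SD, n = 2 each), 7.36-fold higher. The log2 fold change was 2.84 ± 0.34 (SE), and its unadjusted edgeR p of 0.000367 ranked 12 among 14235 genes, with an adjusted p of 0.266. DESeq2 called it (adjusted p = 9.09e-10), as did edgeR without resting A (adjusted p = 0.00109) and without resting B (adjusted p = 0.0146); over all alternatives its log2 fold change lay between 2.43 and 3.14 and its adjusted p reached 0.321. The authors' regularized log2 values were 8.84 and 9.17 in activated replicates 1 and 2 and 6.35 and 6.80 in resting replicates 1 and 2. Cd22 lies at chr7:30865402-30880342 (minus strand), and Gm29439 overlaps it on the other strand; with the strand setting not stated in the labels, reads of the overlapping genes cannot be told apart.

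The transcription factors were close to the limit of detection. Pax5, which holds B cell identity, had 2 and 7 reads in activated Treg and 4 and 12 in resting Treg, with exact Poisson 95% intervals of 0.242 to 7.22, 2.81 to 14.4, 1.09 to 10.2 and 6.20 to 20.96 reads in this order. Ebf1, which acts with Pax5 in early B cells, had 9 and 20 reads in activated Treg and 29 and 15 in resting Treg, or 0.294 and 0.986 CPM against 1.41 and 0.489 CPM. The groups overlapped for both genes. The log2 fold change of Ebf1 was -0.52 ± 0.84 (SE; edgeR adjusted p = 0.985), and its sign turned without activated A (0.073) and without resting A (0.33). Pax5 lies at chr4:44524757-44710487 (minus strand) and Ebf1 at chr11:44617317-45008091 (plus strand).

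Levels were compared between genes as CPM per kilobase of exon, with exon lengths from GENCODE M21. In activated Treg the order of mean levels per kilobase was Ighm (805 ± 227), Igkc (162 ± 67.0), Cd79b (49.3 ± 10.4), Cd22 (4.77 ± 0.860), Cd79a (3.01 ± 0.0994), Ms4a1 (0.288 ± 0.145), Ebf1 (0.0656 ± 0.0501) and Pax5 (0.0232 ± 0.0223), as SD with n = 2. In resting Treg the order was Ighm (425 ± 65.2), Igkc (54.4 ± 43.2), Cd79b (26.8 ± 9.99), Cd79a (4.53 ± 0.332), Cd22 (0.648 ± 0.181), Ms4a1 (0.647 ± 0.00596), Ebf1 (0.0972 ± 0.0666) and Pax5 (0.0331 ± 0.0157). The order differed between the groups only in that Cd22 stood above Cd79a in activated Treg and below it in resting Treg. Neighbours whose libraries overlapped were Ebf1 and Pax5 in activated Treg, and Igkc and Cd79b as well as Cd22 and Ms4a1 in resting Treg. On the same scale Trac, the T cell receptor alpha constant gene, was at 982 ± 278 in activated Treg and 863 ± 109 in resting Treg, and Foxp3 at 8.09 ± 0.132 and 8.06 ± 0.576. Per kilobase, mean Ighm was thus below mean Trac in both groups, and Cd79a and Ms4a1 stood below Foxp3 in both groups.

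Other B lineage genes were read from lists of surface and signalling genes and of transcription factors. Of 24 surface and signalling genes, edgeR called 0 (8 higher and 1 lower with p below 0.05 before adjustment), and DESeq2 called 7 higher and 0 lower; their median log2 fold change was 0.43. Of 12 transcription factors and cofactors, edgeR called 0 (6 higher and 1 lower with p below 0.05 before adjustment), and DESeq2 called 4 higher and 1 lower; their median was 1.55. The log2 fold change was below 0 for 8 of the 24 surface and signalling genes and for 2 of the 12 factors. Over all its genes, DESeq2 called 2.02% higher and 0.689% lower. Before adjustment, edgeR had 6.3% of all genes higher and 2.61% lower with p below 0.05. Treg and other spleen cells are known to express several genes of these lists. Among those with the highest mean CPM, Tnfrsf13b, a receptor for the survival factors BAFF and APRIL, was at 153 and 125 CPM in activated Treg and 122 and 131 CPM in resting Treg, and the groups overlapped. Ly6d, a surface protein of B cell and plasmacytoid dendritic cell lineages, was at 134 and 43.2 CPM in activated Treg against 4.08 and 3.03 CPM in resting Treg (DESeq2 adjusted p = 3.40e-17). Ralgps2 lay the other way, at 43.2 and 24.6 CPM in activated Treg against 67.9 and 45.5 CPM in resting Treg. Cd72 overlapped, at 48.6 and 20.9 CPM against 48.65 and 27.7 CPM. Of the factors, Ikzf3 (129 and 174 against 69.5 and 132 CPM) and Irf4 (56.8 and 62.5 against 26.6 and 64.9 CPM) overlapped. Irf8, a factor of B cells and dendritic cells, was at 271 and 109 CPM in activated Treg against 30.0 and 34.8 CPM in resting Treg (DESeq2 adjusted p = 1.98e-07). Bach2, a factor that holds B and T cells in an unactivated state, was at 35.6 and 21.2 CPM in activated Treg against 84.2 and 56.1 CPM in resting Treg (DESeq2 adjusted p = 0.0169).

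**Figure D3:**
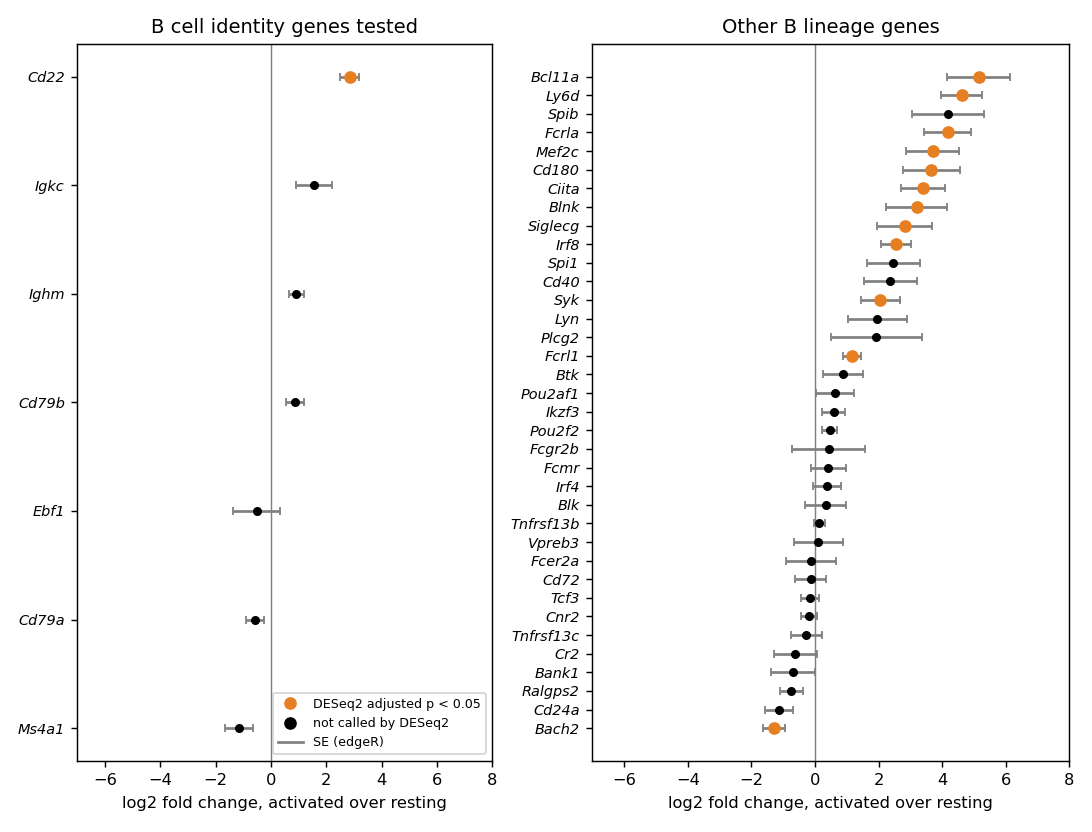
Log2 fold change of activated over resting Treg with its standard error (edgeR) for the 7 B cell identity genes tested (left) and 36 other B lineage genes from 2 lists (right), with orange points called by DESeq2. Cd22, at 2.84, is the highest point on the left, and Bach2, at -1.30, the lowest on the right.

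Other immunoglobulin constant genes varied from library to library. Igha, the IgA constant gene, was at 79.5 and 47.6 CPM in activated Treg and at 20.8 and 0.130 CPM in resting Treg, where resting B had 4 reads. Iglc2, a lambda constant gene, was at 4.31 and 2.46 CPM in activated Treg and at 1.02 and 19.0 CPM in resting Treg. Ighg2b had 5 and 172 reads in activated Treg and 2 and 11 in resting Treg. Of these genes DESeq2 called only Ighg3 (adjusted p = 0.00361), at 2.91 and 4.44 CPM in activated Treg against 0.291 and 0.456 CPM in resting Treg. Of the 9 constant genes listed, 7 had a row and 3 were tested by edgeR, with Ighg2b not among them. By edgeR 0 of the 3 were called (1 higher with p below 0.05 before adjustment). Of 7 plasma cell genes 6 were tested, edgeR called 0 (3 higher and 0 lower with p below 0.05 before adjustment), and DESeq2 called Mzb1, a chaperone partner of immunoglobulin assembly, at 6.08 and 5.72 CPM in activated Treg against 0.486 and 1.11 CPM in resting Treg (adjusted p = 0.00159). Both activated libraries were above both resting ones in 5 of the 6, beside 19.8% of all genes tested. The median log2 fold change of the 6 was 1.31. For scale, DESeq2 called 2.02% of its genes higher and 0.689% lower. With p below 0.05 before adjustment, edgeR had 6.3% of all genes higher and 2.61% lower. Xbp1, a factor of the secretory programme, was at 88.2 and 87.7 CPM in activated Treg and 66.9 and 66.7 CPM in resting Treg. Jchain, which joins IgM and IgA into polymers, was at 31.4 and 37.1 CPM in activated Treg and 9.22 and 31.9 CPM in resting Treg, and overlapped.

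No precursor or germinal centre B cell gene was called, which says little for lists of 3 and 4 tested genes. Over all genes edgeR called 0%, and DESeq2 called 2.02% higher and 0.689% lower. Of the 5 precursor and recombination genes 3 were tested, and edgeR called 0 (0 with p below 0.05 before adjustment), and DESeq2 called 0. Dntt, the terminal transferase, was highest of them at 21.2 and 6.01 CPM in activated Treg and 7.57 and 1.66 CPM in resting Treg. Of the 5 germinal centre genes 4 were tested, and DESeq2 called 0. By edgeR 0 were called (1 higher and 0 lower with p below 0.05 before adjustment, beside 6.3% and 2.61% of all genes). In 2 of the 4 both activated libraries were above both resting ones, beside 19.8% of all genes tested. The median log2 fold change of the 4 was 0.73. Bcl6, a repressor that follicular T cells share, was at 37.4 and 46.9 CPM in activated Treg and 29.4 and 27.3 CPM in resting Treg. S1pr2, a receptor that keeps cells in germinal centres, was at 10.1 and 17.3 CPM in activated Treg and 7.57 and 7.17 CPM in resting Treg, likewise without overlap.

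Most markers of dendritic cells also moved with the groups. Of 13 plasmacytoid dendritic cell genes, DESeq2 called 8 higher and 0 lower, edgeR called 0 (9 higher and 0 lower with p below 0.05 before adjustment), and the list summed to 1052 and 434 CPM in activated Treg and to 205 and 229 CPM in resting Treg. Siglech, which defines these cells, was at 279 and 58.7 CPM in activated Treg and at 0.777 and 0.261 CPM in resting Treg, so it was near 0 in resting Treg. Other genes of the list were not: Bst2 was at 149 and 79.3 CPM in activated Treg and 54.6 and 71.1 CPM in resting Treg. Pacsin1 was at 69.3 and 80.1 CPM against 62.4 and 71.9 CPM, and overlapped. Ccr9 was at 146 and 43.9 CPM against 25.3 and 21.3 CPM. Of the 10 conventional dendritic cell and MHC class II genes, DESeq2 called 2 higher and edgeR 0 (9 higher with p below 0.05 before adjustment). They summed to 5128 and 1645 CPM in activated Treg and 641 and 229 CPM in resting Treg, where Clec9a had 8 and 0 reads and Clec10a 6 and 0. Other genes of this list were well above 0 in resting Treg. Cd74 was at 3406 and 1209 CPM in activated Treg and 482 and 183 CPM in resting Treg. Zbtb46 was at 9.18 and 7.54 CPM against 7.04 and 5.54 CPM. DESeq2 and edgeR called 0 of the 10 macrophage and monocyte genes (1 with p below 0.05 before adjustment by edgeR) and 0 of 3 erythroid and neutrophil genes tested (0 before adjustment). Of 12 T cell genes, DESeq2 and edgeR called 0 (3 higher and 0 lower with p below 0.05 before adjustment by edgeR). Beside these lists, DESeq2 called 2.02% of all its genes higher and 0.689% lower. The unadjusted edgeR p was below 0.05 upward for 6.3% and downward for 2.61% of all genes tested.

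The activated libraries differed from each other in the B cell identity genes and in other lists, in either direction. They also differed in the number of genes detected, 19610 in activated A and 23398 in activated B, although B held fewer counts. The part of this in the differences given here was not tested. All 7 members tested were lower in activated A than in activated B, with log2 ratios of A to B from -1.75 (Ebf1) to -0.07 (Cd79a), and the untested Pax5 was at -2.40. The plasmacytoid dendritic cell genes were higher in activated A in 11 of 13, with a median log2 ratio of 1.80, and the macrophage and monocyte genes in 10 of 10, with a median of 3.64. Of the other B lineage genes, 18 of 24 surface and signalling genes were higher in activated A (median 1.34), among them Ly6d at 1.64, and 8 of 12 transcription factors (median 0.84), among them Irf8 at 1.31. Also mostly higher in activated A were 9 of 10 conventional dendritic cell and MHC class II genes (median 1.80) and 3 of 3 erythroid and neutrophil genes tested (median 2.87). So were 2 of 3 precursor and recombination genes tested (median 1.13) and 2 of 3 other immunoglobulin constant genes tested (median 0.74). The remaining lists ran the way of the members or were mixed. Higher in activated A were 0 of 4 germinal centre genes tested (median -1.04), 3 of 6 plasma cell genes (median -0.12) and 5 of 12 T cell genes (median -0.11). The log2 ratio was -0.58 for Trac and -0.55 for Cd3e, beside -0.58 for Ighm and -0.37 for Cd22. Over all 14235 genes tested, 7364 were higher in activated A and the median was 0.03. The part that other cell types have in the differences of the B cell identity genes between groups was not tested.

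**Figure D4:**
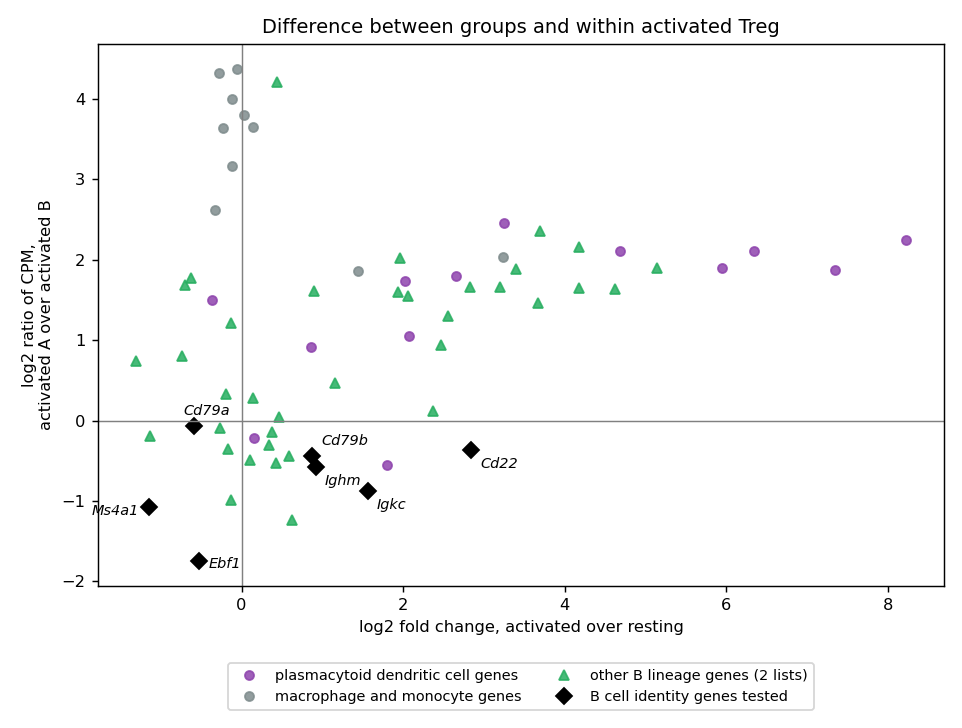
Log2 fold change of activated over resting Treg (horizontal) against the log2 ratio of CPM in activated A over activated B (vertical) for the 7 B cell identity genes tested, 36 other B lineage genes, 13 plasmacytoid dendritic cell genes and 10 macrophage and monocyte genes. The 7 black diamonds all lie below 0 on the vertical axis, and 11 of 13 purple points lie above it.

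Among the 10 genes whose pattern over the 4 libraries lay nearest to the mean of the 7 tested members were Ak4, Fam221b, Mlycd, Hps4, Slc12a8, Fut10, Dusp23, Fbxo44 and Map1lc3a. Likeness was the Euclidean distance between centred log2 CPM over the 4 libraries, which was 0.0785 for Ak4 and 0.128 for Map1lc3a. The members themselves lay farther from their own mean, from 0.321 for Ighm to 2.29 for Cd22, so the mean pattern described no member closely. Map1lc3a, for example, was at 0.980 and 1.73 CPM in activated Treg and 0.825 and 0.913 CPM in resting Treg.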

How the data were processed

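RNA from sorted mouse spleen Treg was sequenced in 4 libraries after SMART-seq v4 amplification, per the labels' protocols. The authors deposited raw read counts per gene, from featureCounts per the file name, and regularized log2 values from DESeq2, in which low counts are shrunk. STAR 2.4.0c, featureCounts, DESeq2 and mm10 are named in the submitters' processing notes. Annotation release, strand setting and read filters were not given in the sources used here. Identifiers were matched to GENCODE M21 (37607 of 38924).

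Counts were scaled with TMM factors, filtered with filterByExpr (minimum count 10, total 15) and tested with edgeR 4.0.16 (R 4.3.3; quasi-likelihood, group only, prior count 2, Benjamini-Hochberg over 14235 genes, threshold 0.05). Approximate standard errors divide each log2 fold change by the root of its F statistic. An exact permutation of 2 against 2 cannot go below p = 0.333 and was not run. Alternatives were DESeq2 1.42.0, limma 3.58.1 (voom, and the regularized log2 values), RLE factors, no filter and each library left out. The procedure was tested on simulated data. Genes and lists were chosen with earlier results of these data known. From each list the up to 4 genes with the highest mean CPM could be named. Clec9a, Clec10a, Zbtb46 and the T cell genes given for scale were added after values were seen. Some genes of these lists are not reported here, and the list counts leave them out. Nearest patterns used log2 of CPM plus 0.1 and left out predicted genes and receptor segments.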

Additional observations from a re-analysis of the deposited data

How the results depend on the processing

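The edgeR count of 0 genes called became 417 with DESeq2 and 852 without the low-count filter, and ranged from 0 to 370 when each library was left out; the count of members called higher, 0, became 1, 4 and 0 to 2 in the same order, and the members called lower stayed at 0 in every alternative run. The cause was not tested. Where a group was left with 1 library, it was assumed to vary like the other group. On the authors' regularized log2 values limma called 0 genes, and with the replicate block it called 1552 genes and 4 members higher (Cd22, Igkc, Cd79b and Ighm). The headings of the count columns identify no replicate, and the block was fitted on those values only. By value, A ran with replicate 1 and B with replicate 2. Igkc, for example, was at 8.47 and 10.1 in resting replicates 1 and 2, beside 12.7 and 45.2 CPM in resting A and B. It was at 10.5 and 11.3 in activated replicates 1 and 2, beside 60.7 and 111 CPM in activated A and B. Deviations of same-numbered samples correlated across genes at r = 0.65, but 2 numbers do not establish a pairing. The log2 fold change of Ebf1 ranged from -1.47 to 0.33 with each library left out and turned positive without activated A (0.073) and without resting A; no other tested member changed sign in any alternative run. Ighm made up most of the members' summed CPM: without it the sums were 188 CPM in activated and 82.4 CPM in resting Treg, and without Ighm and Igkc 102 and 53.5 CPM. With 1 library left out the sum was 1364 to 2048 CPM in activated and 771 to 997 CPM in resting Treg. Pax5 had 2 to 12 reads and Ebf1 9 to 29 reads per library, so their counting error is wide.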
